A study of Mus musculus with 9 samples.

Results

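The tubulin isotypes described here are 10 mouse genes, the beta-tubulin genes Tubb2a, Tubb2b, Tubb3, Tubb5 and Tubb6 and the alpha-tubulin genes Tuba1a, Tuba1b, Tuba1c, Tuba4a and Tuba8. They were chosen by gene symbol with the signals of these 9 arrays known, so the differences of these genes between groups are a description and no test of them is offered. Of 45101 probe sets on the array, 19 had one of the 10 symbols, 14 had it alone and 5 shared it with a pseudogene. A gene was represented by its brightest probe set with 1 symbol, which gave values for 8 of the 10 genes among 18193 genes in all, while Tuba1b and Tuba1c had only probe sets shared with the pseudogenes Gm5620 and Gm6682.

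The study measured RNA of 9 cell samples, 3 in each of 3 groups, on Affymetrix Mouse Genome 430 2.0 arrays. Wild-type cells were neural stem cells (NSC) of the third ventricle zone (TVZ), taken from C57BL/6 Nf1flox/flox pups at postnatal day 1 and given a LacZ virus as control. Nf1-null cells were such NSC given a Cre virus, which deletes the floxed Nf1 gene. Glioma stem cells, called glioma cells below, were grown from optic gliomas of C57BL/6 Nf1+/-GFAP CKO mice aged 3 months, in which Cre is driven by the astroglial GFAP promoter. All cells were kept without attachment in medium with FGF and EGF at 20 ng/ml each. Glioma cells and NSC thus differed in tissue, age, virus treatment and genotype at once, and the effects of these cannot be told apart here. The labels call the NSC samples independent cultures and do not say so of the glioma samples, for which the spread between arrays may be technical.

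The deposited values were probe set signals on a linear scale, and the trimmed mean signal was the same on all 9 arrays. Median signals lay between 264.7 and 287.4. The Nf1 signal was 1139.5, 919.5 and 999.9 in wild-type cells, 430.3, 645.8 and 577 in Nf1-null cells and 622.6, 600.1 and 548.9 in glioma cells, so both Nf1-deficient groups lay below every wild-type array. The difference between the NSC groups was -0.90 on the log2 scale and did not pass the test described below (limma adjusted p = 0.123). Whether the probe set lies in the deleted stretch of Nf1 was not examined, so it is no strict check of the deletion. All 9 neural stem cell markers examined, among them Sox2, Vim, Nes and Fabp7, were above the array's median signal in every group. Their levels were not the same in all groups. By the limma test described below, 1 was higher and 3 were lower in glioma than in wild-type cells, against 9.06% of all genes. The median log2 difference of the 9 was -0.47 there. In the other comparisons 0 of the 9 passed. For Actb, the signal at the 3' end over that at the 5' end, a sign of RNA quality, lay at 1.87 to 1.88 in the wild-type, 1.49 to 1.67 in the Nf1-null and 1.73 to 1.85 in the glioma group. Its part in the results was not tested.

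Alpha- and beta-tubulin form the heterodimers from which microtubules are built, and mammals carry several genes for each. The isotypes differ mostly in their C-terminal tails, where modifying enzymes and associated proteins bind. In the developing brain Tuba1a, Tubb2a, Tubb2b, Tubb3 and Tubb5 are prominent, Tubb3 is a widely used marker of neurons, and Tubb6 is a minor isotype of many tissues. The genes are highly alike in sequence and some lie side by side. In the RefSeq gene table (GRCm38.p6) Tubb2a and Tubb2b are neighbours, as are Tuba1b, Tuba1a and Tuba1c, so probe sets can pick up more than 1 of them. Probe set signals do not give the relative levels of different genes, and each difference below is of 1 probe set across arrays. Summed signals of marker genes serve to describe the arrays only, and are weighted to the brightest probe sets.

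Promoter sequences are shown for 4 isotypes whose signals behaved differently. Tubb3 and Tuba4a were lowest in Nf1-null cells and highest in glioma cells, Tubb5 was higher in both Nf1-deficient groups, and Tuba1a differed little. Each sequence runs from 250 bases before to 50 bases after the annotated start, 5′ to 3′ on the gene's strand, and comes from RefSeq (GRCm38.p6), whose promoter table matched 8 of the 10 genes, all but Tubb6 and Tubb2b. Capitals mark 3 motifs on either strand: TATAA, the core of the TATA box, the CCAAT box, and GGGCGG, the core of the GC box. Where a motif lies on the other strand, its reverse complement is in capitals.
Tubb3, chr8:123411303-123411602, plus strand: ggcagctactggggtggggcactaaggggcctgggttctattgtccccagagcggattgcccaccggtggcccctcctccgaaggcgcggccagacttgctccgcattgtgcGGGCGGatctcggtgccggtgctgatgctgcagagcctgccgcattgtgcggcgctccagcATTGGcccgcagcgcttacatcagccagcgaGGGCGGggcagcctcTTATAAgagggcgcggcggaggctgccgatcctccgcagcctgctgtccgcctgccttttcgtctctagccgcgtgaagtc
Tuba4a, chr1:75219245-75219544, minus strand: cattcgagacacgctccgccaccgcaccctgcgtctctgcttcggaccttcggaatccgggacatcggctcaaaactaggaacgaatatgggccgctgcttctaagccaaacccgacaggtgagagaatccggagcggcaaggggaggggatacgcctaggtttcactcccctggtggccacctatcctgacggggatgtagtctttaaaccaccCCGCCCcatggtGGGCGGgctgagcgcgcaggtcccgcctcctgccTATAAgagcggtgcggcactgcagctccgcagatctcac
Tubb5, chr17:35838252-35838551, minus strand: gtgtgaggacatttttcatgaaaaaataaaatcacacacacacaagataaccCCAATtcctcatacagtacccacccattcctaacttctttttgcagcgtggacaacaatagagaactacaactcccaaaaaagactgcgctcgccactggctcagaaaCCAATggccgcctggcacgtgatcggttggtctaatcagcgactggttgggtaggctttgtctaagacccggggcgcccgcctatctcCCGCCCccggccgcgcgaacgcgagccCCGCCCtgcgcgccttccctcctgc
Tuba1a, chr15:98953452-98953751, minus strand: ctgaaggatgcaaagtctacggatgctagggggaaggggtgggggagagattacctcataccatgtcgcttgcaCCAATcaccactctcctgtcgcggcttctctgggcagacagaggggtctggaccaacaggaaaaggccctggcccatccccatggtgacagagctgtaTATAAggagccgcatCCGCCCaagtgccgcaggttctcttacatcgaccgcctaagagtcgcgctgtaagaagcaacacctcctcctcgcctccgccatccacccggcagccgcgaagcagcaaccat

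Among 32851 promoter windows of this length, 24.9% held TATAA, 37.4% held CCAAT and 35.7% held GGGCGG on either strand. Of the 8 isotype promoters, 4 held TATAA (Tuba1a, Tuba4a, Tubb2a and Tubb3), 4 held CCAAT (Tuba1a, Tuba1c, Tubb3 and Tubb5) and 6 held GGGCGG (all but Tuba1c and Tuba8). The TATAA of Tubb3 began 30 bases before the start, where a TATA box commonly lies, and overlapped a match on the other strand. That of Tubb2a began 29 bases before the start, and that of Tuba1a 78 bases before. In Tuba4a it began 11 bases after the annotated start. Such matches describe the letters in the window and are not shown to be sites.

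Tubb6 had the largest difference of the 8 isotypes between either Nf1-deficient group and wild-type cells. Its signal (probe set 1416431_at) was 1877, 1172 and 2049.9 in wild-type cells. It was 10434, 12619 and 7886 in Nf1-null cells and 10532, 12919 and 11050.2 in glioma cells. All 6 Nf1-deficient arrays were thus far above the 3 wild-type arrays, and the ranges of the Nf1-deficient groups overlapped each other. Tubb6 was 6.13-fold higher in Nf1-null than in wild-type cells (log2 difference 2.62, SE 0.27, n = 3 per group). It was 6.93-fold higher in glioma cells than in wild-type cells (2.79, SE 0.27), and the glioma and Nf1-null groups differed by 0.18 (SE 0.27), which is less than its error. In same-numbered NSC arrays the difference was 2.47, 3.43 and 1.94. The other Tubb6 probe set (1446353_at) was dim, with signals between 235.2 and 372.5, and its differences were 0.08, 0.02 and 0.10 (SE 0.25) for Nf1-null against wild-type, glioma against Nf1-null and glioma against wild-type. The Tubb6 difference therefore rests on 1 probe set, and with the mean of both probe sets it was 1.35 between the NSC groups and 1.44 between glioma cells and wild-type cells.

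**Figure D1:**
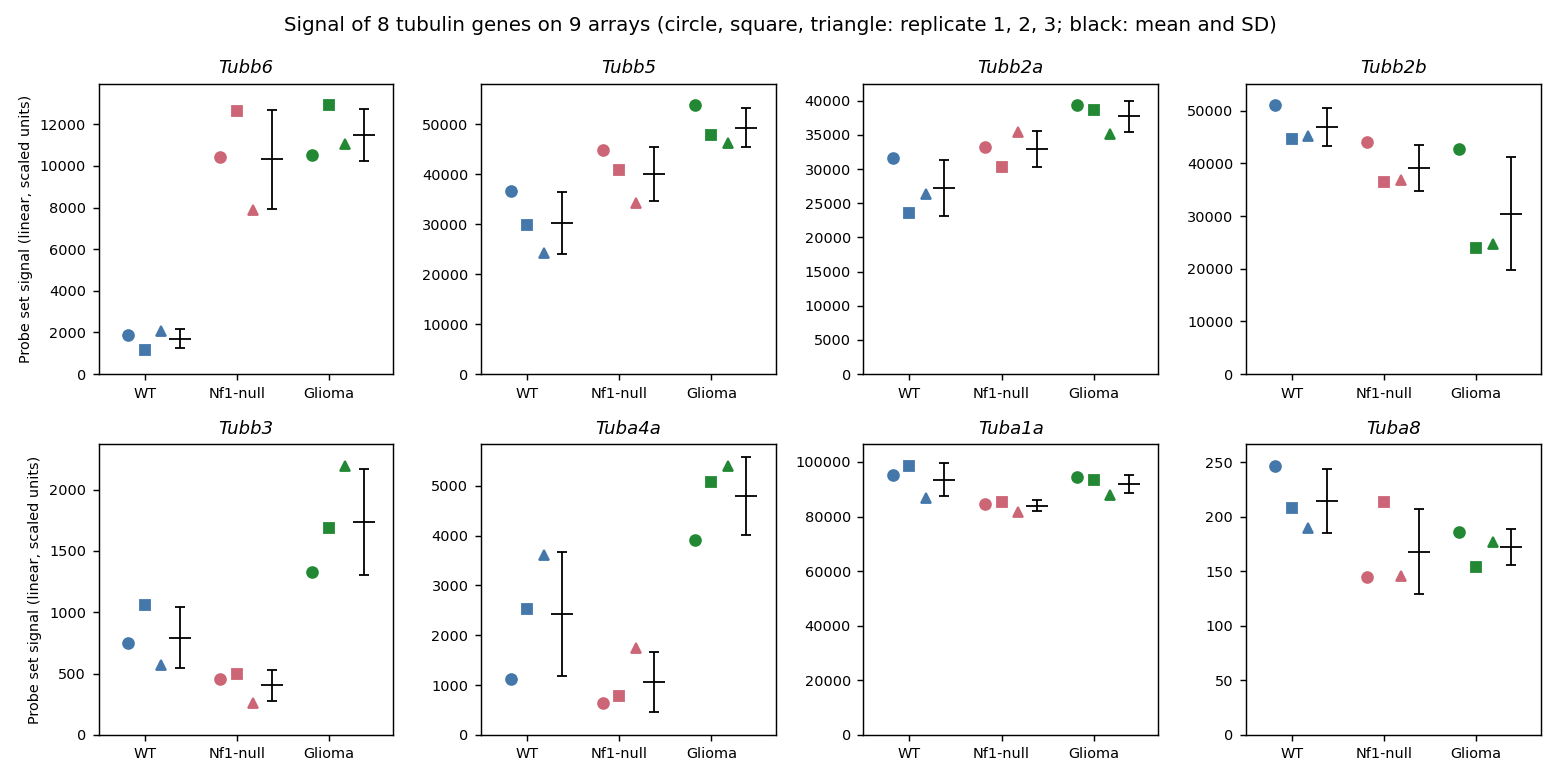
Signal of the brightest single-symbol probe set of 8 tubulin genes (y axis, linear scaled units, each from 0) in wild-type cells (WT), Nf1-null cells and glioma cells (x axis), 1 point per array, with mean and SD in black. Tubb6 lies between 1172 and 2049.9 in wild-type cells and at 7886 or above elsewhere, and Tubb3 and Tuba4a are lowest in Nf1-null cells and highest in glioma cells.

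Signals of proliferation genes were, like that of Tubb6, higher in both Nf1-deficient groups than in wild-type cells. The summed signal of 11 measured proliferation markers, such as Mki67 and Top2a, was 21289.5 to 66061 in wild-type cells, 69338 to 143971 in Nf1-null cells and 123784 to 177729 in glioma cells. All 11 were higher on average in each of the 3 comparisons, where 44.5%, 46.8% and 43.9% of all genes were. By limma's test 0, 0 and 4 of them passed (the 4 being Top2a, Mcm2, Mcm5 and Pcna), against 0%, 1.75% and 9.06% of all genes. The summed signal of 10 endothelial markers was 1481 to 1998, 5052 to 8052 and 8861 to 10770.1 in the same order, through Plvap and Cd93. Of the other endothelial markers, Pecam1, Cdh5, Tek, Cldn5 and Emcn were below the array's median signal on all 9 arrays, Esam on 8, Kdr on 5 and Flt1 on 3. The highest Kdr signal was 414.2 and the highest Flt1 signal 630.3, both on Nf1-null arrays. The part of proliferation in the Tubb6 difference was not tested. In bulk RNA, fewer cells of a type and less RNA per cell cannot be told apart.

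Tubb5, the broadly expressed beta-tubulin of dividing and neural progenitor cells, was also higher on average in both Nf1-deficient groups. Its differences from wild-type cells were smaller than those of Tubb6. Its brightest probe set (1416256_a_at) read 36679.7, 29938 and 24308 in wild-type cells, 44854, 40955 and 34247 in Nf1-null cells and 53836, 47912 and 46287 in glioma cells. The NSC groups overlapped, and every glioma array was above every NSC array. The log2 difference was 0.41 between the NSC groups, 0.31 between glioma cells and Nf1-null cells and 0.72 between glioma cells and wild-type cells (SE 0.20). The second probe set (1455719_at) read 4631, 3835 and 4304.5 in wild-type cells, 9883, 7337 and 7903 in Nf1-null cells and 11670.2, 7914 and 8294 in glioma cells. Here the NSC groups did not overlap, and the difference between them was 0.97 (SE 0.22), with 0.14 and 1.11 for the other comparisons. Both probe sets had the same direction in all 3 comparisons, and the second gave the larger difference from wild-type cells.

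Tubb2a and Tubb2b, neighbouring genes for beta-tubulins of brain, differed in opposite directions. The brightest Tubb2a probe set (1427347_s_at, a type that can match several related transcripts) read 31657, 23539 and 26376 in wild-type cells, 33218, 30243 and 35404 in Nf1-null cells and 39354, 38678 and 35062 in glioma cells. It was thus higher on all glioma arrays than on any wild-type array, by 0.48 (SE 0.16), while the neighbouring steps of 0.29 and 0.20 came with overlapping ranges. The other Tubb2a probe set (1427838_at) lay between 743.5 and 1299.1 and differed by -0.01, -0.04 and -0.04 (SE 0.26) in the 3 comparisons.

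Tubb2b (1452679_at) read 51040, 44572 and 45154 in wild-type cells, 44095, 36389 and 36874.5 in Nf1-null cells and 42777, 23956 and 24629 in glioma cells. Every array of both Nf1-deficient groups lay below the wild-type arrays, and 1 glioma array lay within the Nf1-null range, far above the other 2. The log2 differences were -0.27 for Nf1-null against wild-type cells, -0.41 for glioma against Nf1-null and -0.67 for glioma against wild-type (SE 0.24). Without glioma array 1, the high one, the last of these was -0.95. A probe set shared by Tubb2b and the pseudogene Tubb2a-ps2 (1449682_s_at) read 6792, 7328 and 3994, then 6161, 3312 and 4413, then 2959.6, 1725 and 2342 in the same order of groups. Its differences were -0.38, -0.97 and -1.35 (SE 0.35), the same signs as those of Tubb2b, and which of the genes gave its signal is uncertain.

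Tubb3, the beta-tubulin used as a marker of neurons, was lowest in Nf1-null cells and highest in glioma cells. Its only probe set (1415978_at) read 753, 1057 and 569 in wild-type cells, 456, 497 and 260.0 in Nf1-null cells and 1329.7, 1688 and 2194 in glioma cells. No group overlapped another. Tubb3 was 1.97-fold lower in Nf1-null than in wild-type cells (log2 difference -0.98, SE 0.34), at -0.72, -1.09 and -1.13 in same-numbered arrays. It was 4.36-fold higher in glioma cells than in Nf1-null cells (2.13, SE 0.34) and 2.21-fold higher than in wild-type cells (1.15, SE 0.34).

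Neuronal genes outside the tubulins were in sum also lowest in Nf1-null cells, but not gene by gene. The summed signal of 12 neuron markers was 9394 to 12308 in wild-type cells, 6205 to 8693 in Nf1-null cells and 9408 to 13519 in glioma cells. Unlike for Tubb3, the wild-type and glioma ranges overlapped. Between these groups 5 of the 12 were higher on average in glioma cells, against 43.9% of all genes, with a median of -0.16. Gad1, an enzyme of GABA synthesis, read 1951, 3068 and 1641, then 199.7, 453.5 and 1253.5, then 2536, 3984 and 3773. Rbfox3, the antigen known as NeuN, instead read 1113, 1613 and 790.2, then 544, 490.2 and 543.1, then 347.2, 107.8 and 152.2, so it was lowest in the glioma cells in which Tubb3 was highest. Nefh and Slc17a6 were below the array's median signal on all 9 arrays, and 0 of the 12 neuron markers passed limma's test between glioma cells and Nf1-null cells, against 1.75% of all genes. Against wild-type cells, where Tubb3 was also higher in glioma cells, 1 of the 12 was higher (Elavl4) and 4 were lower (Rbfox3, Snap25, Slc17a6 and Ina), against 9.06% of all genes. The part of neuronal cells in the Tubb3 difference was not tested.

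**Figure D2:**
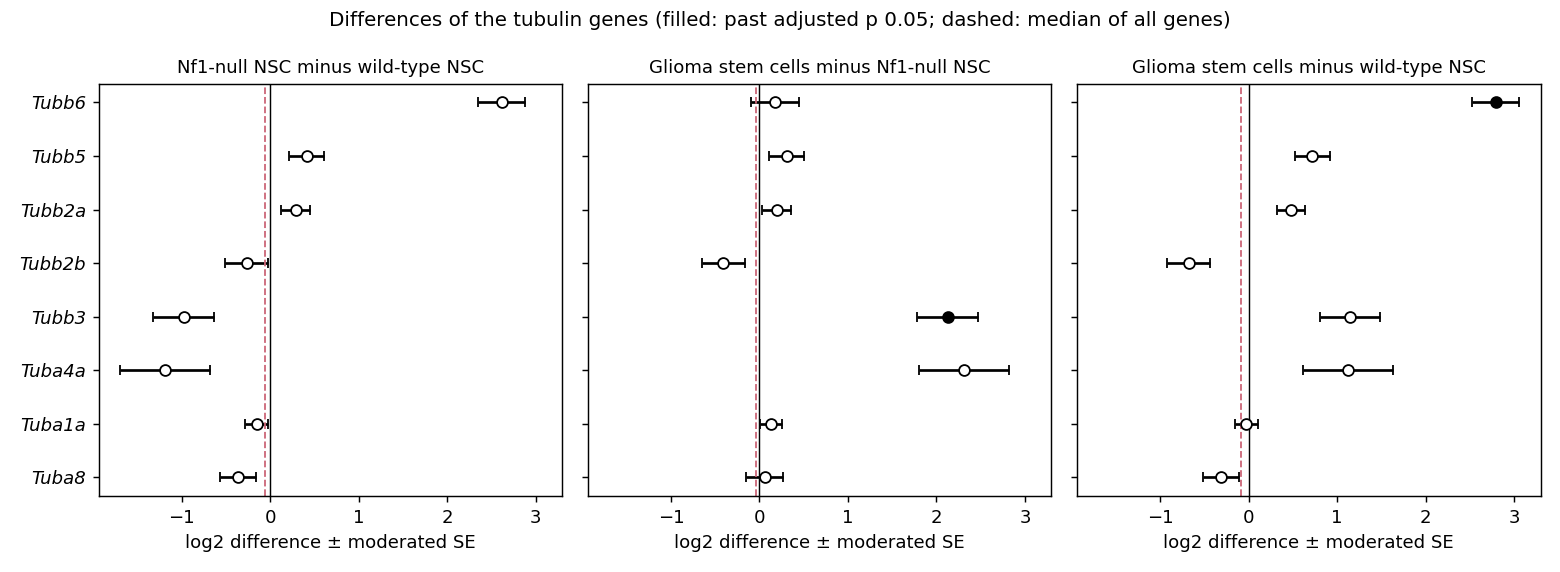
Log2 difference with its moderated standard error (x axis) for 8 tubulin genes (y axis) in 3 comparisons of 3 arrays against 3, with filled points for genes past the adjusted p threshold and a dashed line at the median of all genes. Tubb6 stands out at 2.62 and 2.79 against wild-type cells, and Tubb3 at 2.13 and Tuba4a at 2.31 between glioma cells and Nf1-null cells.

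Tuba4a, an alpha-tubulin whose gene does not encode the C-terminal tyrosine found on most others, had the same order of groups as Tubb3. Its brightest probe set (1417373_a_at) read 1131, 2533 and 3615 in wild-type cells, 640.4, 777.6 and 1742 in Nf1-null cells and 3905, 5072 and 5398 in glioma cells. The NSC groups overlapped, and every glioma array was above every NSC array. The difference was -1.19 (2.28-fold lower) between Nf1-null and wild-type cells, with a wide SE of 0.51. Within same-numbered NSC arrays it was -0.82, -1.70 and -1.05, so the Nf1-null array was the lower of each pair. Glioma cells were 4.97-fold higher than Nf1-null cells (2.31, SE 0.51) and 2.18-fold higher than wild-type cells (1.12, SE 0.51).

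A second Tuba4a probe set (1417374_at) read 605, 1047 and 1556, then 349, 533.8 and 839.3, then 1584.5, 2004.9 and 1818.5, and its differences were -0.88, 1.73 and 0.85 (SE 0.42), the same order of groups. The third was below the array's median signal on 8 of 9 arrays. The summed signal of 5 measured oligodendrocyte markers was 881.1 to 7078 in wild-type cells, 1163 to 1502 in Nf1-null cells and 3086 to 66772 in glioma cells. Mbp, a myelin protein, made up most of the sum in glioma cells. Gene by gene, 4 of the 5 were higher on average in Nf1-null than in wild-type cells, with a median of 0.21. In each comparison of the glioma cells 3 of 5 were higher, with medians of 1.26 against Nf1-null and 1.36 against wild-type cells. Of all genes 44.5%, 46.8% and 43.9% were higher in the 3 comparisons. By limma's test 0, 1 and 0 of the 5 passed, against 0%, 1.75% and 9.06% of all genes. Opalin, another myelin protein, ran opposite to Tuba4a, at 299.2, 238.9 and 204.3, then 672.4, 605.8 and 869.1, then 270.0, 304.2 and 174.0, and was the 1 marker of this list lower in glioma than in Nf1-null cells by limma's test. Mobp was below the array's median signal on all 9 arrays.

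Markers of oligodendrocyte precursors were lowest in Nf1-null cells, as Tubb3 and Tuba4a were. Their summed signal over 7 genes was 125273 to 136552 in wild-type cells, 85652 to 107058 in Nf1-null cells and 122490.0 to 135719 in glioma cells. Between the NSC groups 0 of 7 were higher on average, with a median of -1.85, and between glioma and Nf1-null cells 7 of 7 were, with a median of 1.87, against 44.5% and 46.8% of all genes. By limma's test 0 of the 7 passed in the first comparison and 1, Pcdh15, in the second, against 0% and 1.75% of all genes. Pcdh15 had the full order of Tubb3, at 1099.6, 1662 and 2045, then 478.7, 151.6 and 674.4, then 3729, 5338 and 4365. Between glioma and wild-type cells 4 of 7 were higher, against 43.9% of all genes, and the median was 0.08. There 0 passed, against 9.06% of all genes.

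Astrocyte markers had negative medians in all 3 comparisons. The median of 7 genes was -1.16 between the NSC groups, -2.45 between glioma and Nf1-null cells and -3.23 between glioma and wild-type cells. Aqp4, Aldh1l1 and Gja1 were lower by limma's test in both comparisons of the glioma cells. Of all genes 1.75% passed against Nf1-null and 9.06% against wild-type cells. The fall was not shared by all 7, of which 0, 3 and 1 were higher on average in the 3 comparisons. Of all genes 44.5%, 46.8% and 43.9% were. S100b was highest in glioma cells, at 4451, 6914 and 11308, then 3071, 3884 and 10179, then 17468, 34246 and 33525, and did not pass. The part of oligodendroglial and astroglial cells in the Tubb3 and Tuba4a differences was not tested.

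**Figure D3:**
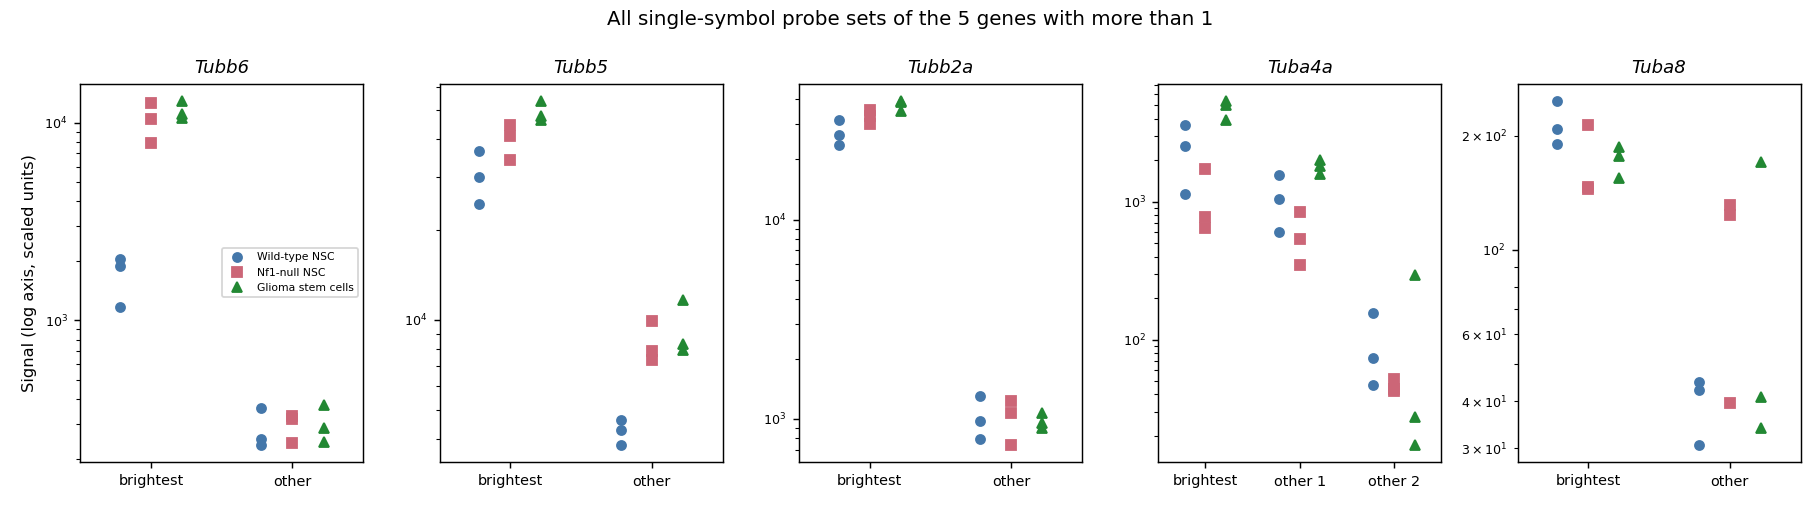
Signal on each array (y axis, log scale, scaled units) of every single-symbol probe set of the 5 tubulin genes with more than 1 such set (x axis), by group. Both Tubb5 sets and the 2 brighter Tuba4a sets keep 1 order of group means, while the dim Tubb6 set stays between 235.2 and 372.5 in all groups.

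**Figure D4:**
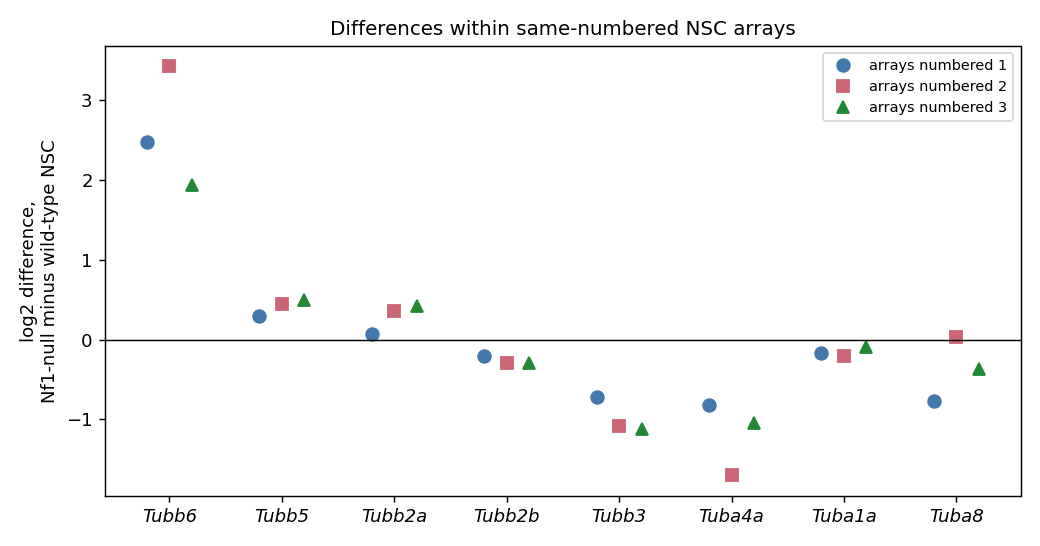
Log2 difference between the Nf1-null and wild-type arrays of the same replicate number (y axis) for 8 tubulin genes (x axis), 1 point per number. Tubb6 lies at 1.94 to 3.43 and Tuba4a at -1.70 to -0.82.

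Tuba1a, the main alpha-tubulin of newborn neurons, differed little. It read 95058, 98563 and 86968 in wild-type cells, 84769, 85359 and 81611 in Nf1-null cells and 94552, 93235 and 88070.3 in glioma cells. The Nf1-null arrays were the lowest and did not overlap the others, yet the differences were only -0.15, 0.13 and -0.02 (SE 0.13), and that between glioma cells and wild-type cells turned to 0.04 when arrays were shifted to a common median. These signals were 66.5% to 77.7% of the highest signal of each array, where the scale may be compressed, which was not tested. A probe set shared by Tuba1a and Gm6682 (1433584_at) was below the array's median signal on all 9 arrays. It read 150.8, 114.6 and 130.1, then 210.1, 141.2 and 155.1, then 86.9, 133 and 112.1, and differed by 0.34, -0.60 and -0.26 (SE 0.24), opposite in sign to the Tuba1a set in the first 2 comparisons, with glioma arrays all below Nf1-null arrays. Which gene gave its signal is uncertain. The within-group SD of the brightest Tuba1a set was 0.07 on the log2 scale, against a median of 0.39 over all genes. That of the other 7 isotypes ranged from 0.15 for Tubb2a to 0.68 for Tuba4a.

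The probe set shared by Tuba1b and Gm5620 (1423846_x_at) read 61278, 48492 and 47618 in wild-type cells, 68405, 75734.5 and 60235 in Nf1-null cells and 85628, 77932 and 77146 in glioma cells. Glioma arrays were the highest and did not overlap the NSC, and the differences were 0.38, 0.24 and 0.62 (SE 0.18). The 2 probe sets shared by Tuba1c and Gm6682 read between 190.8 and 867.2. They differed by 0.51, -0.06 and 0.45 (SE 0.29) and by 0.67, -0.31 and 0.36 (SE 0.38), with overlapping ranges between glioma cells and either NSC group. Which gene these signals belong to is uncertain.

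Tuba8 was dim. Both of its probe sets were below the array's median signal on all 9 arrays. The brighter one ranged from 144.6 to 246.8 and differed by -0.37, 0.06 and -0.31 (SE 0.20), and the other gave 1.13, -0.47 and 0.66 (SE 0.68), opposite in sign in all 3 comparisons. No order of the groups can be read for Tuba8.

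Counts of isotypes were set beside those of all genes. The test was limma's moderated test on log2(value + 1) with Benjamini-Hochberg adjusted p under 0.05 over 18193 genes. Between Nf1-null and wild-type cells 0 of 8 isotypes passed (3 at an unadjusted p under 0.05), where 0% of all genes did (0 of 18193, with 3048 at an unadjusted p under 0.05). When only the brighter 9097 genes were tested, 4.38% passed, and Tubb6 was the only isotype among them. Between glioma cells and Nf1-null cells 1 of 8 passed, Tubb3, against 1.75% of all genes. The Tubb3 call was lost without wild-type array 1 or 2, any Nf1-null array, or glioma array 2 or 3, and with only the 6 arrays compared, at differences of 1.84 to 2.30 over all alternatives. The count of all genes moved between 72 and 721 as arrays were left out. Between glioma cells and wild-type cells 1 of 8 passed, Tubb6, against 9.06% of all genes. The isotypes were selected on these contrasts, so nothing is read from these counts.

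The 3 values of a group lay wholly above or below those of the other for 4 of 8 isotypes between the NSC groups (Tubb6 higher, Tubb2b, Tubb3 and Tuba1a lower), where 23.8% of all genes did so. This held for 4 of 8 between glioma cells and Nf1-null cells, all higher (Tubb3, Tubb5, Tuba1a and Tuba4a), against 21.9%. It held for 7 of 8 between glioma cells and wild-type cells, 5 higher and 2 lower (Tubb2b and Tuba8), against 34.8%. The median log2 difference of the isotypes was -0.21, 0.19 and 0.60 in the 3 comparisons, and that of all genes was -0.06, -0.04 and -0.09. With the replicate number as a block, the isotype passing between glioma cells and Nf1-null cells was Tuba4a instead of Tubb3.

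Other genes of the microtubule system were taken from 6 lists of 96 genes, of which 91 were measured. Of these, 0 passed between the NSC groups, with 20 at an unadjusted p under 0.05, where 16.8% of all genes were. Between glioma cells and Nf1-null cells 2 were higher, 2.20% of the 91 against 1.75% of all genes. Between glioma cells and wild-type cells 3 were higher and 3 lower, 6.59% against 9.06%. The shares were near those of all genes. The median difference of the 91 genes was -0.02, -0.04 and -0.01 in the 3 comparisons.

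None of the 8 other tubulin genes measured passed in any comparison, at 0 of 8 each by limma, with 0, 0 and 1 at an unadjusted p under 0.05. The share of all genes at such an unadjusted p was 16.8%, 16.5% and 26.3%. Tubg1, the gamma-tubulin that nucleates microtubules, came closest. It read 2214, 1461 and 1556 in wild-type cells, 2783, 1933 and 1876 in Nf1-null cells and 3503, 2928 and 2753 in glioma cells. Glioma arrays were above all wild-type arrays, by 0.83 (SE 0.24, limma adjusted p = 0.0695, which did not pass). This difference passed in 7 of 24 alternative settings, among them the replicate number as a block (limma adjusted p = 0.0304). Tubb4a, a beta-tubulin of myelinating cells, read 417.6, 418.4 and 972.4, then 249.3, 296.8 and 392.7, then 358.2, 543.8 and 773, and differed by -0.85 between the NSC groups (SE 0.42, limma adjusted p = 0.355). Tubb1, Tuba3b and Tubg2 were below the array's median signal on all 9 arrays.

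Among 11 measured genes for destabilizing and severing proteins, which shorten or cut microtubules, 0 passed between the NSC groups. An unadjusted p under 0.05 was reached there by 4 of them, and by 16.8% of all genes. Between glioma and Nf1-null cells 1 passed, 9.09% of the list against 1.75% of all genes, and between glioma and wild-type cells 3 passed, 27.3% against 9.06%. Fign, the severing enzyme fidgetin, read 371.1, 384.5 and 393.1 in wild-type cells, 576, 416.7 and 404.1 in Nf1-null cells and 1313, 1589 and 1436 in glioma cells. The glioma cells stood apart from both NSC groups, with a rise of 1.65 over Nf1-null cells (SE 0.18, limma adjusted p = 0.0114) and 1.91 over wild-type cells (SE 0.18, limma adjusted p = 0.00587), and both calls held whichever array was left out. With the mean of all its probe sets the first was lost, at 1.87, and so it was with only the 6 arrays compared, at 1.65. Its paralogue Fignl1, which acts in DNA repair, read 1668, 551.4 and 712.2, then 4382.5, 2904 and 1962, then 4219, 3895 and 3713. It rose by 2.18 in glioma cells against wild-type cells (SE 0.44, limma adjusted p = 0.0292). Without any of 5 arrays (wild-type 2 or 3, or any glioma array) this call was lost, at 1.85 to 2.22. The same held with the mean of all probe sets, at 0.92, and with only the 6 arrays compared.

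Spast, the severing enzyme spastin, went the other way. It read 13464, 13019.5 and 13140 in wild-type cells, 11357.5, 9646 and 10389 in Nf1-null cells and 8192, 6808 and 6287.5 in glioma cells, with no overlap between groups. It fell by 0.91 in glioma cells against wild-type cells on the log2 scale (SE 0.15, limma adjusted p = 0.0195), a call lost without wild-type array 2 or 3 or glioma array 2 or 3, at -0.92 to -0.82. With the mean of all its probe sets the difference was -0.39 and did not pass. The other 8 genes of this list of 11 did not pass in any comparison. Kif2c, a depolymerizing kinesin of mitosis, differed by 2.03 between the NSC groups (SE 0.74, limma adjusted p = 0.233).

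Among the 19 genes for stabilizing and plus-end proteins only Mapt passed, between glioma and Nf1-null cells, 5.26% against 1.75% of all genes. Mapt, the axonal protein tau, read 2001, 2326 and 3222 in wild-type cells, 1086, 687.1 and 1568 in Nf1-null cells and 3134, 3533 and 3513 in glioma cells. The Nf1-null arrays were below all others, as for Tubb3. Mapt rose by 1.68 in glioma cells against Nf1-null cells (SE 0.32, limma adjusted p = 0.0490), and the call was lost without any 1 of the 9 arrays, at 1.38 to 1.97, and with the replicate number as a block (limma adjusted p = 0.0605). The difference between the NSC groups, -1.23, did not pass (SE 0.32, limma adjusted p = 0.165). Dcx, doublecortin of migrating neurons, read 889.8, 2572 and 1539, then 542.9, 397.6 and 520.8, then 623, 1177 and 1089, and differed by -1.65 between the NSC groups (SE 0.41, limma adjusted p = 0.160). With 13 of 19 genes lower on average in Nf1-null cells, the median of this list was -0.25, against -0.06 for all genes.

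Nucleation genes gave 1 call of 14, between glioma and wild-type cells, 7.14% against 9.06% of all genes. Haus6, a subunit of the augmin complex that recruits gamma-tubulin in the spindle, read 630.6, 428.9 and 329.6, then 1138, 965 and 613.5, then 1249, 1080.1 and 1033. It rose by 1.32 in glioma cells against wild-type cells (SE 0.31, limma adjusted p = 0.0392), a call lost without any of 6 arrays (wild-type 2 or 3, Nf1-null 2, or any glioma array), at 1.10 to 1.38. Fitting only the 6 arrays compared also lost the Haus6 call. Tpx2, a spindle assembly factor, differed by 1.51 between the NSC groups (SE 0.52, limma adjusted p = 0.219). Of 22 genes for tubulin folding, which cover prefoldin, the CCT chaperonin and the tubulin cofactors, 0 passed in any comparison by limma (3, 1 and 4 at an unadjusted p under 0.05). Such an unadjusted p was reached by 16.8%, 16.5% and 26.3% of all genes. Pfdn4, a prefoldin subunit, had the largest difference between the NSC groups, 0.75 (SE 0.21, limma adjusted p = 0.179), and 17 of the 22 were higher on average in Nf1-null cells, with a list median of 0.23, where 44.5% of all genes were higher and their median was -0.06. Between glioma and Nf1-null cells the list went the other way, with 6 higher, 16 lower and a median of -0.11, against 46.8% of all genes higher and a median of -0.04.

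**Figure D5:**
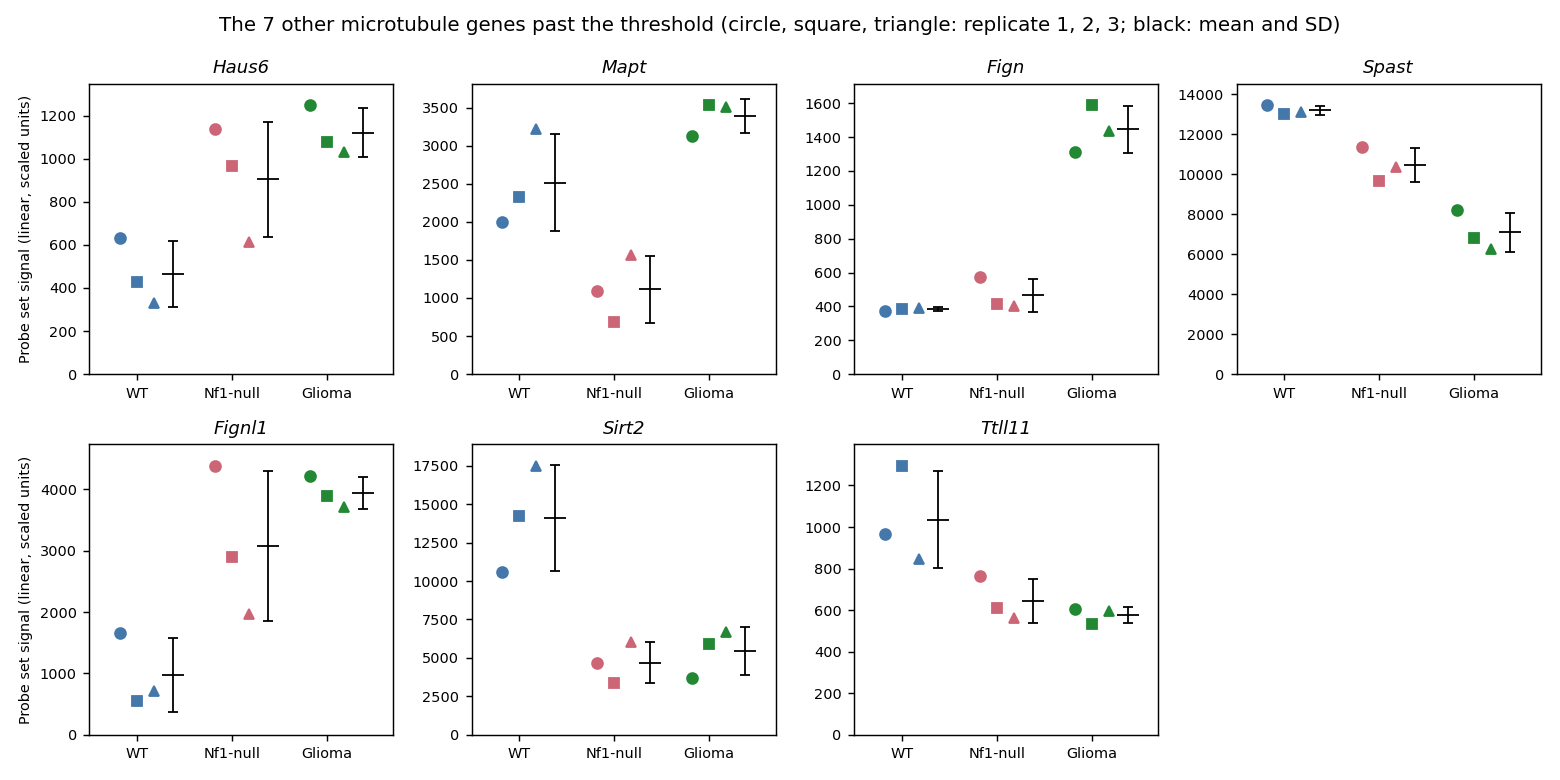
Signal (y axis, linear scaled units from 0) on each array of the 7 other microtubule genes that passed in at least 1 comparison, by group (x axis), with mean and SD in black. Fign lies between 371.1 and 576 in NSC and at 1313 or above in glioma cells, and Spast steps down from wild-type to Nf1-null cells to glioma cells.

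Of 17 measured enzymes that modify tubulin, 2 were lower in glioma cells than in wild-type cells, 11.8% against 9.06% of all genes. Between the NSC groups 0 passed and 7 had an unadjusted p under 0.05, where 16.8% of all genes did. There 14 of the 17 were lower on average in Nf1-null cells, with a median of -0.30 against -0.06 for all genes. Between glioma and Nf1-null cells 0 passed and 11 were higher on average, with a median of 0.08. Sirt2, a deacetylase of alpha-tubulin that is abundant in myelinating cells, read 10588, 14207 and 17481.5 in wild-type cells, 4679, 3363 and 6039 in Nf1-null cells and 3721.5, 5910.3 and 6701 in glioma cells. Both Nf1-deficient groups lay well below wild-type cells. It fell by 1.39 in glioma cells (SE 0.32, limma adjusted p = 0.0395), a call lost without any of 7 arrays (any wild-type or glioma array, or Nf1-null 1), at -1.58 to -1.13. Fitting only the 6 arrays compared lost this call too. The difference of -1.60 between the NSC groups did not pass (SE 0.32, limma adjusted p = 0.114). Ttll11, a ligase that adds glutamate chains to tubulin, read 965.2, 1294 and 844.3, then 762.1, 610.9 and 560.9, then 607.7, 534.7 and 593.7. It fell by 0.82 (SE 0.21, limma adjusted p = 0.0497). That call was lost without any 1 of the 9 arrays, at -0.95 to -0.64, and the mean of all its probe sets gave 0.06.

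The genes whose signals tracked 2 isotypes most closely over the 9 arrays were found among 9096 brighter genes, as a description over points that fall into 3 groups. For Tubb6 they were Pole4 (Pearson r = 0.987), Ccnd2 (0.985) and Gap43 (0.981). Gap43, a growth cone protein, read 2684, 1582 and 2075 in wild-type cells, 16439, 31630.4 and 9897 in Nf1-null cells and 15757, 22655 and 26247 in glioma cells. Like Tubb6, it separated both Nf1-deficient groups from wild-type cells on every array. For Tubb3 they were Fam241a (0.960), Atp11a (0.960) and Nexmif (0.951), and Nexmif read 1873.5, 2434 and 1453.5, then 1527, 1237 and 1092, then 3865, 4228 and 3660.1.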

How the data were processed

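Per the labels' protocols, biotin-labelled cRNA of each of the 9 samples, starting from 100 ng of RNA, was put on 1 array. The deposited values are probe set intensity values on a linear scale. Which software computed them is not stated in the labels or headers used here. Every array has a trimmed mean of 1500, which sets aside differences in total RNA. The number of arrays, 3 per group, limits the precision.

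Of 45101 probe sets, 34945 had 1 gene symbol in the platform annotation, 932 several and 9160 none, and 64 were controls. Symbols matched a RefSeq table by Entrez identifier for 34741, and 0 changed. The brightest 1-symbol probe set stood for each of 18193 genes. Values were turned into log2(value + 1). Using limma 3.58.1 under R 4.3.3, a linear model with a mean for each of the 3 groups was fitted to all 9 arrays, and variances were moderated by empirical Bayes with no trend (6 residual, 1.63 prior degrees of freedom). Two-sided p-values were adjusted over all genes by Benjamini and Hochberg's method, with a threshold of 0.05. A fold is the antilog of a log2 difference, and its error is the moderated standard error.

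The members and the gene lists were chosen with earlier results of these data known. Named genes of each list were up to 4 with the smallest adjusted p past the threshold or, where none passed, up to 2 with the largest difference, and a selection of the latter is given. Markers of other cell types were named after their values were seen. The model was tested on simulated data.

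Deviations from the group mean across the brighter 9097 genes correlated at 0.64, 0.24 and 0.59 between wild-type and Nf1-null arrays of equal number. Between those of unequal number the correlations were -0.54 to -0.02, so their numbers may pair them. The main fit has no block, so its errors and p-values leave this out. This pairing comes from the data, not the labels. For glioma cells these values were 0.24, 0.05 and 0.20 against wild-type and 0.30, 0.12 and 0.11 against Nf1-null cells. Differently numbered arrays also reached 0.19 against wild-type and 0.11 against Nf1-null cells, and the glioma cells came from other mice. Blocked values stand beside the first and last of these comparisons where they change a call. Alternatives covered array scaling, a pseudocount of 16, probe set summaries, dim-gene filters, variance priors, fits of 6 arrays, the replicate block and each array left out.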

Additional observations from a re-analysis of the deposited data

Results flagged for a closer look

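For 2 isotypes every Nf1-null cells array lay below the mean of wild-type cells and every glioma stem cell array above it. For Tubb3 the Nf1-null arrays lay at -1.56 to -0.63 and the glioma arrays at 0.79 to 1.51 relative to the wild-type mean on the log2 scale, and the 2 groups differed by 2.13. For Tuba4a these ranges were -1.77 to -0.32 and 0.84 to 1.31, and the difference was 2.31. The comparison of glioma cells with Nf1-null cells is itself the difference between the 2 shifts. In limma's test of that comparison Tubb3 passed and Tuba4a did not. As these genes were selected on the same values, nothing is read from this.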

How the results depend on the processing

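The 24 isotype differences were recomputed under 24 alternatives, 23 planned and 1 (the replicate block within the 6 arrays compared) added after seeing the data. Of 567 values, 552 moved by less than 1 SD between replicates, 15 moved by more and 0 reversed a called value. Tubb6 passed between glioma cells and wild-type cells in 23 of 24, all but that added fit, and Tubb3 between glioma cells and Nf1-null cells in 14 of 24. Tubb3 was lost with 6 arrays alone, with the replicate block, with both, and without wild-type array 1 or 2, any Nf1-null array or glioma array 2 or 3.

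Counts of genes past the threshold are given for isotypes, other microtubule genes and all genes in turn. Between Nf1-null and wild-type cells, where each count was 0, they were 1, 6 and 398 for the brighter genes alone. A mean-variance trend gave 1, 1 and 329, and a robust trend 1, 4 and 378. Without the dimmest 25% of genes 1 isotype and 136 genes passed. The replicate block, with the NSC paired by number, left 0, 0 and 0 alone and gave 2, 16 and 1081 with the brighter genes and 2, 13 and 974 with a trend (Tubb6 and Tuba4a being the isotypes).

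Between glioma cells and Nf1-null cells (1, 2 and 319) the brighter genes gave 2 isotypes and 607 genes, leaving out the dimmest 25% 2 and 536, a trend 2 and 737, and a robust trend 2 and 773. The mean of all probe sets gave 0 other microtubule genes and 149 genes, each probe set tested 1 such gene, and probe sets without a suffix 1. Fits of 6 arrays gave 0, 0 and 29. The replicate block gave 1 other microtubule gene and 193 genes, and 2, 5 and 944 with the brighter genes, 2, 5 and 1133 with a trend and 0, 0 and 0 with 6 arrays.

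Between glioma cells and wild-type cells (1, 6 and 1649) the mean of all probe sets gave 2 isotypes and 1083 genes, and probe sets without a suffix 2 isotypes. The brighter genes gave 5 and 21, leaving out the dimmest 25% 3, 12 and 2488, a trend 4, 16 and 2680, and a robust trend 5, 18 and 2767. Fits of 6 arrays gave 3 other microtubule genes and 1030 genes. The replicate block gave 2 isotypes (Tubb5 beside Tubb6), and 6, 24 and 3013 with the brighter genes, 6, 24 and 3370 with a trend and 0, 0 and 0 with 6 arrays. The cause of these changes was not tested, beyond the fewer genes or arrays tested.

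Leaving out 1 array gave 0 to 0, 0 to 1 and 1 to 2 isotypes in the 3 comparisons, 0 to 0, 1 to 3 and 1 to 6 other microtubule genes, and 0 to 1, 72 to 721 and 214 to 1756 genes. Of 37 differences of other genes, 747 of 875 alternative values kept their direction and call, 80 lost a call, 43 gained one and 5 reversed. Mapt kept its call in 9 of 24 alternatives, Ttll11 in 7, Haus6 and Fignl1 in 16, Spast in 18 and Fign in 21 and 23. With the mean of all probe sets Agbl4 was at -0.48 between the NSC groups, and Tubb4b at -0.073 and Ttll11 at 0.061 between glioma cells and wild-type cells. With arrays left out, Tubg2 ranged from -0.54 to 1.07 between the NSC groups and Nf1 from -0.050 to 0.24 between glioma cells and Nf1-null cells. Calls of single cell-type markers under these alternatives are not given here. Signals near or below the array's median (Tuba8, the dim Tubb6 set) give no usable order, and very bright ones may be compressed.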
